A study of Mus musculus with 8 samples.

Results

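The genes that carry salt and water out of the colon lumen were followed in the distal colon of 8 male mice. This set holds 10 genes chosen by symbol for their function, *Aqp8*, *Aqp4*, *Car1*, *Car4*, *Slc26a3*, *Slc9a3*, *Slc5a8*, *Scnn1a*, *Scnn1b* and *Scnn1g*, out of 15859 genes with deposited counts, and all 10 passed the filter on low counts. The mice were HSF1 WT or HSF1 null littermates on a BALB/c x 129SvEV background, labelled as 10 weeks old, with 2 mice in each of 4 groups. Untreated WT and untreated *Hsf1* null mice are called day 0. Treated WT and treated *Hsf1* null mice are called day 15: they received azoxymethane (AOM), a colon carcinogen, once at 8 weeks of age at 10 mg/kg, and from day 7 onward drank 1.5% dextran sulfate sodium (DSS), an irritant that injures the colon epithelium, for 5 days. No group received AOM or DSS alone, so the agents cannot be told apart. Day 15 is the time in the sample titles, whereas the labelled protocol ends with the DSS course. *Hsf1* encodes heat shock factor 1, a transcription factor of the stress response, and the null mice lack it in every cell type of the body and not in the epithelium alone.

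Surface colonocytes take up sodium through 2 apical routes. In electroneutral uptake, the sodium/proton exchanger NHE3 (*Slc9a3*) works beside the chloride/bicarbonate exchanger DRA (*Slc26a3*), and carbonic anhydrases supply both with protons and bicarbonate. In electrogenic uptake, which dominates in the distal colon and responds to aldosterone, sodium enters through the epithelial sodium channel ENaC, built from an alpha (*Scnn1a*), a beta (*Scnn1b*) and a gamma (*Scnn1g*) subunit. Water follows the salt, in part through aquaporins, and *Slc5a8* couples the uptake of sodium to that of short-chain fatty acids made by the microbiota.

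Total counts per mouse lay between 2553348 and 12440257, and in each genotype the replicate 2 library of day 0 was the smallest. Levels are given as CPM (read counts scaled to library size by TMM) for each mouse, replicate 1 first. Between genes, levels are compared as CPM per kilobase of annotated exon. Fold changes and their standard errors (SE) come from edgeR's quasi-likelihood test over 14371 genes, with p adjusted by the Benjamini-Hochberg method. A gene was called, and is said to rise or fall, at an adjusted p under 0.05 with an absolute log2 fold change above 1. Unless another setting is named, this refers to edgeR with TMM on all 8 mice. *Hsf1* itself was at 40.5 and 36.5 CPM in WT against 14.0 and 11.9 CPM in null mice at day 0, and at 50.4 and 45.9 CPM against 13.5 and 9.09 CPM at day 15. The null mice were below WT on both days, and reads were still counted on the gene in every null mouse.

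The starts of 5 of these genes are shown because they carry the largest changes below (*Aqp8*, *Slc26a3*, *Scnn1g*), sit beside each other on a chromosome (*Scnn1g*, *Scnn1b*), or hold the letters of a heat shock element, the motif that HSF1 binds (*Car4*). Each line gives the 250 bases before the RefSeq transcription start on GRCm38.p6, all on the plus strand, and capitals mark a match to a searched motif. The window of *Aqp8* is chr7:123462044-123462293, that of *Car4* chr11:84957504-84957753, that of *Slc26a3* chr12:31437969-31438218, that of *Scnn1g* chr7:121734229-121734478 and that of *Scnn1b* chr7:121864788-121865037.
Aqp8: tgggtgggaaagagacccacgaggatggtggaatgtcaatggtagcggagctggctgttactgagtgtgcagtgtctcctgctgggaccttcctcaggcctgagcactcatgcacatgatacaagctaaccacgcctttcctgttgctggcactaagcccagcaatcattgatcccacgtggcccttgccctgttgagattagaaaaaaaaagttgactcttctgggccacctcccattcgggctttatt
Car4: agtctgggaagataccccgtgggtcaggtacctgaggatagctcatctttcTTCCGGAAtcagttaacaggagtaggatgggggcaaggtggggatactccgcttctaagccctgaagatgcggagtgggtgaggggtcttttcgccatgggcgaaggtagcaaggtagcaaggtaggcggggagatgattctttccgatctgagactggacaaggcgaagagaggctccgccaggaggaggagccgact
Slc26a3: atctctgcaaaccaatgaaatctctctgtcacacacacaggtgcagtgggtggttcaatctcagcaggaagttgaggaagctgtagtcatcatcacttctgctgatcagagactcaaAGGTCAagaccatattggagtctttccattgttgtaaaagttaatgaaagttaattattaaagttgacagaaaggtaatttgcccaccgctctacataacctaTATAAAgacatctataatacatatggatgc
Scnn1g: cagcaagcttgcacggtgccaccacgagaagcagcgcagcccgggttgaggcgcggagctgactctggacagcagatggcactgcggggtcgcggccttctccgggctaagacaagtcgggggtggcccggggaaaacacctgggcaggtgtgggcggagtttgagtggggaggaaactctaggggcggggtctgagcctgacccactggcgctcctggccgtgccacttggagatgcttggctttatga
Scnn1b: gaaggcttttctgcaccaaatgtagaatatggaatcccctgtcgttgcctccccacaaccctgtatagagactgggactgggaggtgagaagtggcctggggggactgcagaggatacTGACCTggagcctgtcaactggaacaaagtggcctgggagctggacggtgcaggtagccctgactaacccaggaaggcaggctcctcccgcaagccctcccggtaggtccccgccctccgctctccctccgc

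RefSeq promoters were matched for 7 of the 10 genes (also *Slc9a3* and *Slc5a8*). In both strands of these windows, 5 motifs were searched: the heat shock element GAANNTTC and its inverted form TTCNNGAA, the steroid receptor core TGTTCT, the nuclear receptor core AGGTCA and the TATA box TATAAA. *Car4* held TTCCGGAA, an inverted heat shock element, 199 bases before its start, a form that 7.17% of all 32851 promoters hold in a window of that length. GAANNTTC, present in 6.69% of all promoters, and TGTTCT, present in 16.1%, matched none of the 7 windows. *Slc26a3* held AGGTCA 133 bases and TATAAA 30 bases before its start, and *Scnn1b* held AGGTCA on the minus strand (TGACCT) at 132 bases, against 14% of all promoters for AGGTCA and 12.4% for TATAAA. The start used for *Slc26a3* lies inside the longer GENCODE span of the gene. GC content ranged from 38.8% in the window of *Slc26a3* to 67.6% in that of *Slc9a3*. On GRCm38 (GENCODE M21), *Scnn1g* (chr7:121734479-121768475) and *Scnn1b* (chr7:121865038-121918514) are neighbours on the plus strand with 96.6 kb between them. None of the 10 genes is on chromosome 15, where *Hsf1* lies.

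In untreated WT colon the carbonic anhydrases were the most abundant of these transcripts. *Car1* stood at 934 CPM per kilobase (mean of n = 2) and *Car4* at 466, followed by *Aqp8* at 172, and the ranges of the 2 mice did not overlap between these 3 genes. Below them, *Slc26a3* (99.0), *Scnn1a* (70.7) and *Slc5a8* (63.4) had ranges that overlapped from each to the next. *Aqp4* (21.8) and *Scnn1b* (16.0) came next, and *Scnn1g* (7.23) and *Slc9a3* (6.28) were lowest, with overlapping ranges. Together the 10 genes took 0.311% and 0.477% of the reads counted in untreated WT mice, 0.747% and 0.829% in untreated null mice, 0.0826% and 0.149% in treated WT mice and 0.476% and 0.216% in treated null mice.

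After AOM-DSS, every one of the 10 transport genes had a lower estimate in WT colon, and in *Hsf1* null colon 7 of the 10 did with TMM and all 10 with scaling to 10 pan-epithelial transcripts. In WT mice 3 of 10 fell (*Aqp8*, *Slc26a3* and *Slc5a8*), where 4.27% of all tested genes fell, and the median log2 fold change of the 10 was -1.93, beside 0.00 over all genes. The 2 treated WT mice were below both untreated WT mice for 9 of the 10 genes (all but *Car1*), against 31.5% of all genes. In null mice 4 of 10 fell (*Slc26a3*, *Slc5a8*, *Car1* and *Scnn1g*), where 6.48% of all genes fell, with a median of -0.65 beside 0.05 over all genes (-1.45 beside -0.64 with pan-epithelial scaling). Those same 4 genes were the ones without overlap between the 2 days in null mice, where 30.3% of all genes were lower without overlap. Without the 2 smallest libraries, which leaves 1 mouse in each untreated group, none of the 10 was called in any comparison, and the medians were -1.59 in WT and -0.66 in null mice.

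At day 15 the null mice had the higher estimate for all 10 genes. *Aqp8* and *Slc5a8* passed the test, 2 of 10 where 1.91% of all genes were called higher, and the median of the 10 was 1.29 beside -0.04 over all genes. Without *Hsf1* null day 15 replicate 1, that median was 0.69, 8 of the 10 estimates were above 0 and none was called. Both null mice were above both WT mice for 8 of the 10 genes (all but *Slc9a3* and *Scnn1g*), against 26.2% of all genes. Scaled to 10 pan-epithelial transcripts instead of to all genes, this median was 0.75 while that of all genes was -0.52, 8 of the 10 estimates stayed above 0, and those of *Aqp4* and *Scnn1g* turned to -0.14 and -0.46. Before treatment none of the 10 passed the test, and neither did any other gene (0% called by edgeR, with 904 genes at an unadjusted p under 0.05, and 18 genes called by DESeq2). At day 0, *Car1*, *Car4*, *Slc26a3* and *Scnn1g* were higher and *Aqp4* was lower in null mice without overlap, against 18.7% of all genes that were higher and 18.4% that were lower in that way. The day 15 comparison and the WT time course share the same 2 treated WT mice, and each genotype's time course shares its mice with the genotype comparisons.

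**Figure D1:**
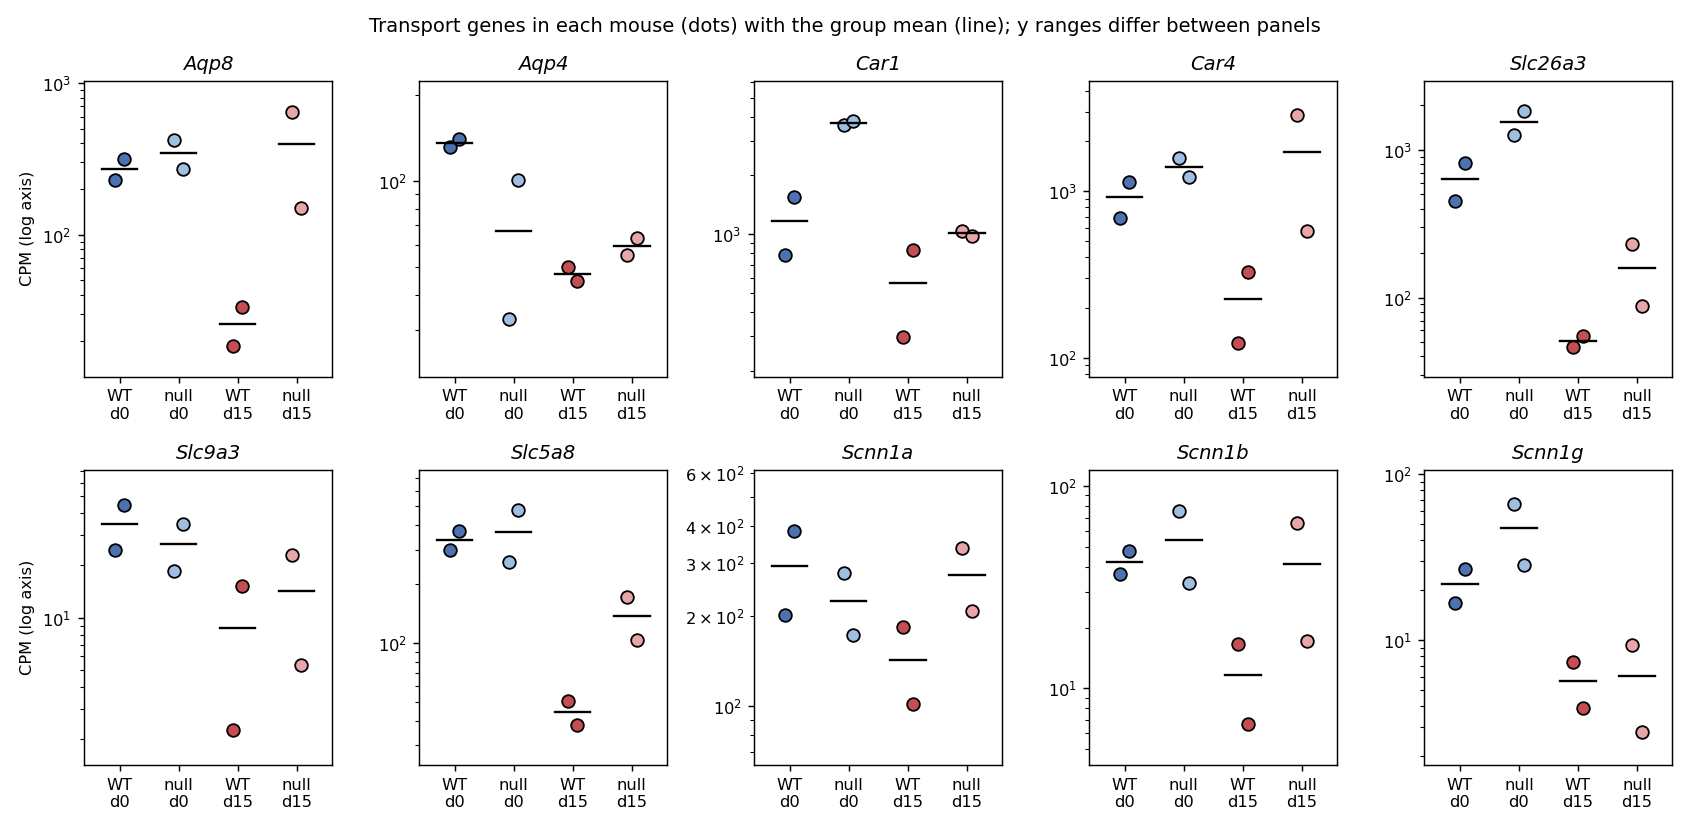
CPM of each of the 10 transport genes on a log axis, with a dot for each mouse and a line at the mean of the 2 mice, in the 4 groups (null, *Hsf1* null; d0, day 0; d15, day 15). The treated WT mice lie below both untreated WT mice in every panel except that of *Car1*, and the 2 treated null mice lie far apart for *Aqp8*, *Car4*, *Slc9a3* and *Scnn1b*.

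Of the 2 water channels, *Aqp8* was called with TMM on all 8 mice and *Aqp4* was not. *Aqp8*, the main aquaporin of colonocytes (chr7:123462291-123468004), was at 231 and 314 CPM in WT against 423 and 272 CPM in null mice at day 0, and at 18.6 and 33.4 CPM against 642 and 149 CPM at day 15. The treated WT mice were below all other mice, whereas the treated null mice lay on either side of the untreated ones. *Aqp8* fell 10.5-fold with treatment in WT mice (log2 fold change -3.39 ± 0.62 SE, adjusted p = 0.0151). In null mice the estimate was 0.18 ± 0.56 (adjusted p = 0.849), and it turned to -0.58 with pan-epithelial scaling. At day 15 *Aqp8* was 15.2-fold higher in null than in WT mice (3.93 ± 0.64, adjusted p = 0.0210). Its difference between the genotypes in the response to treatment was 3.57 ± 0.82 on the log2 scale, with an unadjusted p of 0.00147 and an adjusted p of 0.337, so it was not called. Leaving out *Hsf1* null day 15 replicate 1, the mouse with 642 CPM, lowered the day 15 estimate to 2.53. The call was lost without that mouse, without either null day 0 mouse (3.93 in both cases) and without WT day 15 replicate 1 (3.57) or 2 (4.41). It was also lost with only the treated mice in the fit. The WT fall lost its call without WT day 0 replicate 2 (-3.14) and without WT day 15 replicate 1 (-3.03) or 2 (-3.87).

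*Aqp4*, a basolateral water channel of colonocytes that enteric glia and skeletal muscle also make, followed a different course. It was at 132 and 140 CPM in WT against 33.0 and 101 CPM in null mice at day 0, and at 50.0 and 44.8 CPM against 55.2 and 63.3 CPM at day 15. The untreated WT mice were highest, and a single untreated null mouse was lowest. No comparison was called by edgeR with TMM on all 8 mice: the log2 fold change with treatment was -1.52 ± 0.42 in WT mice (adjusted p = 0.0531) and -0.15 ± 0.42 in null mice (adjusted p = 0.836), and null against WT was -1.05 ± 0.42 at day 0 (adjusted p = 0.775). The WT change was called by DESeq2 (-1.51), with no filter on low counts (-1.51), with only the WT mice in the fit (-1.52) and without either null day 0 mouse (-1.52 in both cases). Summed over 6 skeletal muscle markers the level was 17.1 to 47.3 CPM in all mice. It was 26.6 and 35.7 CPM in untreated WT and 29.8 and 17.1 CPM in treated WT mice. Of the 5 tested, *Ckm* fell in WT mice, from 15.1 and 24.6 to 5.13 and 1.48 CPM, and the other 4 had higher estimates. Over 7 enteric glia and neuron markers the sum was 56.3 to 60.7 CPM in untreated WT and 80.7 to 122 CPM in treated WT mice, so the glial sum was higher in the group where *Aqp4* was lower. The part of either cell type in the *Aqp4* change was not tested. *Aqp8* over *Aqp4* per kilobase was 6.92 and 8.82 in untreated WT mice, 1.47 and 2.94 in treated WT mice, 50.6 and 10.6 in untreated null mice and 45.9 and 9.27 in treated null mice.

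Of the carbonic anhydrases, which interconvert carbon dioxide and bicarbonate, *Car1* was called in the null time course and *Car4* in no comparison with TMM on all 8 mice. *Car1*, a cytosolic enzyme (chr3:14766216-14808368), was at 783 and 1549 CPM in WT against 3642 and 3806 CPM in null mice at day 0, and at 299 and 834 CPM against 1045 and 978 CPM at day 15. Both untreated null mice were above every other mouse. *Car1* fell 3.68-fold with treatment in null mice (log2 fold change -1.88 ± 0.49, adjusted p = 0.0377), and this call was lost without any of the 4 null mice in turn (-1.91 and -1.85 without day 0 replicates 1 and 2, -1.92 and -1.83 without day 15 replicates 1 and 2). In WT mice the estimate was -1.04 ± 0.48 (adjusted p = 0.195). Null over WT at day 0 was 1.68 ± 0.49, with an unadjusted p of 0.0067 and an adjusted p of 0.775 in edgeR, and it was called by DESeq2.

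*Car4*, an enzyme anchored to the apical membrane (chr11:84957786-84966044), was at 692 and 1141 CPM in WT against 1583 and 1213 CPM in null mice at day 0, and at 123 and 325 CPM against 2867 and 579 CPM at day 15. Treated WT mice were lowest, and the treated null mice held both the highest value of all and a value below every untreated mouse. The log2 fold change was 2.94 ± 0.71 for null against WT at day 15 (adjusted p = 0.0559), -2.03 ± 0.69 with treatment in WT mice (adjusted p = 0.0922) and 0.30 ± 0.66 in null mice (adjusted p = 0.786, and -0.50 with pan-epithelial scaling). The day 15 difference was called by DESeq2 (2.96), with pan-epithelial scaling (2.30), with no filter on low counts (2.95) and without null day 15 replicate 2 (3.68). The WT change was called with pan-epithelial scaling (-2.09) and without either null day 15 mouse (-2.03 in both cases). *Car1* over *Car4* per kilobase was 1.78 and 2.14 in untreated WT mice, 3.62 and 4.95 in untreated null mice, 3.83 and 4.04 in treated WT mice and 0.574 and 2.66 in treated null mice. *Car4* was thus the more abundant of the pair in a single mouse, *Hsf1* null day 15 replicate 1.

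Of the 2 electroneutral exchangers, *Slc26a3* fell with treatment in both genotypes. *Slc26a3* (DRA, chr12:31390871-31473917), the chloride/bicarbonate exchanger whose loss causes congenital chloride diarrhoea, was at 448 and 813 CPM in WT against 1253 and 1828 CPM in null mice at day 0, and at 46.7 and 55.3 CPM against 231 and 88.3 CPM at day 15. Within each day both null mice were above both WT mice, and within each genotype both treated mice were below both untreated mice. *Slc26a3* fell 12.4-fold in WT (log2 fold change -3.63 ± 0.50, adjusted p = 0.00655) and 9.66-fold in null mice (-3.27 ± 0.49, adjusted p = 0.0125). The difference between these responses was 0.36 ± 0.64 (adjusted p = 0.900), and -0.42 with pan-epithelial scaling. Null over WT was 1.29 ± 0.46 at day 0 (adjusted p = 0.775) and 1.64 ± 0.47 at day 15 (adjusted p = 0.0773), not called on either day, although DESeq2 and the fit without null day 15 replicate 2 called it at day 15 (1.66 and 2.18). The WT fall was called with any single mouse left out, and the null fall was lost only without *Hsf1* null day 0 replicate 2 (-2.97).

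*Slc9a3* (NHE3, chr13:74121457-74169442) was the less abundant of the pair. It was at 24.7 and 44.4 CPM in WT against 18.5 and 34.8 CPM in null mice at day 0, and at 2.26 and 15.3 CPM against 23.1 and 5.35 CPM at day 15. The lowest value rests on 26 counts, which give an exact 95% Poisson interval of 1.48 to 3.31 CPM for counting error only. Neither change with treatment was called (-1.97 ± 0.84, adjusted p = 0.163 in WT, and -0.89 ± 0.82, adjusted p = 0.492 in null mice), and the treated mice of each genotype differed from each other, on the log scale, more than the group means did. *Slc26a3* over *Slc9a3* per kilobase was 15.7 and 15.8 in untreated WT mice, 58.6 and 45.3 in untreated null mice, 17.8 and 3.12 in treated WT mice and 8.63 and 14.3 in treated null mice.

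*Slc5a8*, the sodium-coupled carrier of butyrate and other short-chain fatty acids (chr10:88885992-88929515), was the gene called most often, in 3 of the 4 comparisons between groups. It was at 299 and 376 CPM in WT against 261 and 481 CPM in null mice at day 0, and at 50.8 and 37.9 CPM against 171 and 104 CPM at day 15. Treated mice were below untreated mice in both genotypes, and the treated WT mice were lowest. *Slc5a8* fell 7.61-fold in WT (log2 fold change -2.93 ± 0.38, adjusted p = 0.00597) and 2.69-fold in null mice (-1.43 ± 0.36, adjusted p = 0.0329). At day 15 it was 3.10-fold higher in null than in WT mice (1.63 ± 0.36, adjusted p = 0.0445). The difference between the 2 responses was 1.50 ± 0.50 with an unadjusted p of 0.0135 and an adjusted p of 0.456, and was not called. The WT fall was called with any single mouse left out. The null fall was lost without *Hsf1* null day 0 replicate 2 (-0.92) and without null day 15 replicate 1 (-1.82) or 2 (-1.11). The day 15 difference was also lost with pan-epithelial scaling (1.12), with the replicate number as a block (1.64) and with only the treated mice in the fit (1.66). Among fits with a mouse left out, it stayed called only when null day 15 replicate 2 was left out, and the estimates without each of the other 7 mice lay between 1.24 (without null day 15 replicate 1) and 1.86 (without WT day 15 replicate 1), with 1.44 without WT day 15 replicate 2, 1.65 without WT day 0 replicate 2 and 1.63 without each of the remaining 3 day 0 mice.

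**Figure D2:**
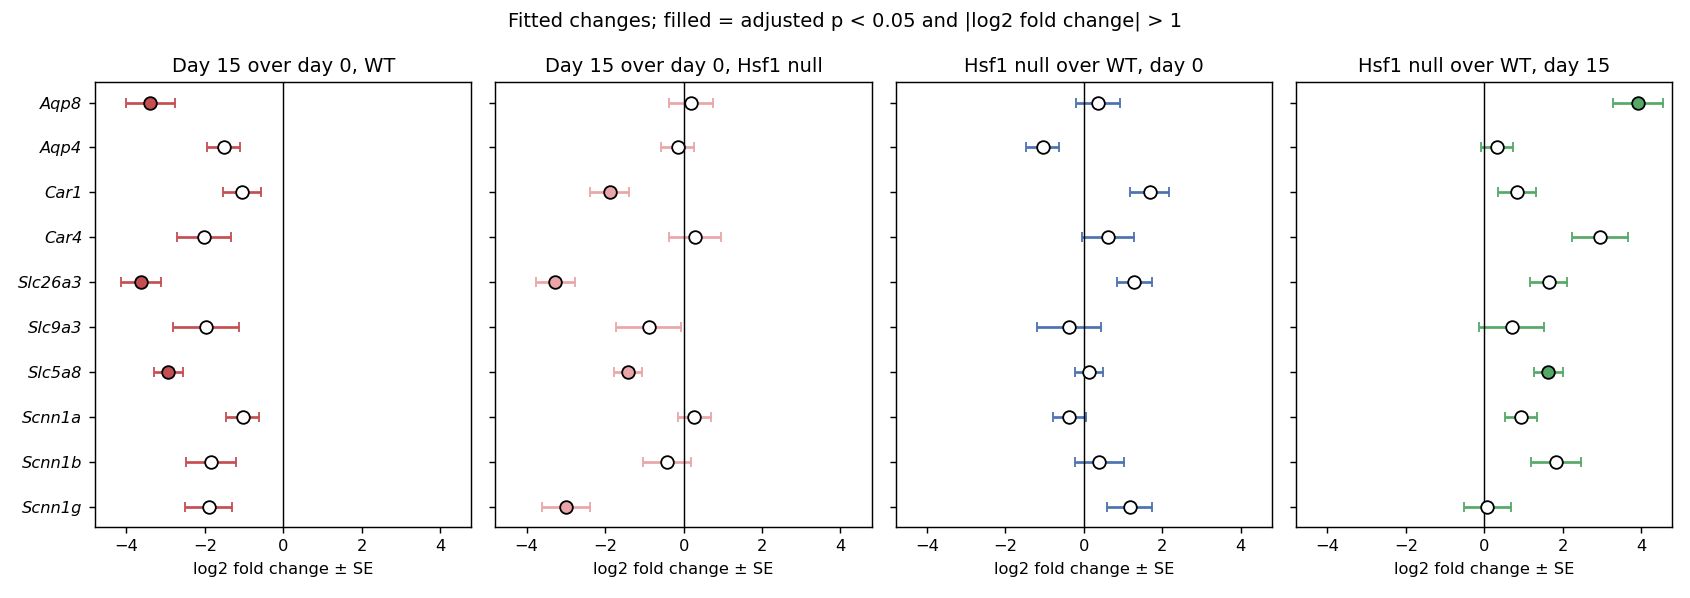
Fitted log2 fold changes of the 10 transport genes with their SE (horizontal bars) in 4 comparisons between groups of 2 mice, with filled dots for called genes. *Aqp8*, *Slc26a3* and *Slc5a8* are filled in WT over time, *Car1*, *Slc26a3*, *Slc5a8* and *Scnn1g* in *Hsf1* null over time, none at day 0, and *Aqp8* and *Slc5a8* between the genotypes at day 15.

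Of the 3 ENaC subunits, edgeR with TMM on all 8 mice called gamma in the null time course and made no other call. *Scnn1g* (gamma) was at 16.7 and 26.6 CPM in WT against 66.2 and 28.4 CPM in null mice at day 0, and at 7.39 and 3.91 CPM against 9.30 and 2.81 CPM at day 15. The treated mice of both genotypes were below all untreated mice. *Scnn1g* fell 7.97-fold in null mice (log2 fold change -2.99 ± 0.62, adjusted p = 0.0206), and the estimate was -1.90 ± 0.60 in WT mice (adjusted p = 0.0778), with a difference of -1.09 ± 0.83 between the genotypes (adjusted p = 0.739). The WT change of *Scnn1g* was called by DESeq2 (-1.91), with pan-epithelial scaling (-2.05) and without null day 15 replicate 1 (-1.89) or 2 (-1.90). The null call was lost without null day 0 replicate 1 (-2.24) or 2 (-3.46) and without null day 15 replicate 2 (-2.36). That last mouse had 21 counts of *Scnn1g*, with an exact 95% Poisson interval of 1.74 to 4.29 CPM. At day 15 null over WT was 0.08 ± 0.61 (adjusted p = 0.953), and -0.46 with pan-epithelial scaling.

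*Scnn1b* (beta) was at 36.7 and 47.6 CPM in WT against 75.4 and 33.0 CPM in null mice at day 0, and at 16.5 and 6.65 CPM against 65.4 and 17.2 CPM at day 15. *Scnn1a* (alpha, chr6:125320659-125344943) was at 201 and 384 CPM in WT against 277 and 172 CPM in null mice at day 0, and at 183 and 101 CPM against 338 and 208 CPM at day 15. For both subunits the treated WT mice were lowest within their genotype, while the treated and untreated null mice overlapped. Neither was called by edgeR with TMM on all 8 mice: with treatment *Scnn1b* had a log2 fold change of -1.85 ± 0.64 in WT (adjusted p = 0.100) and -0.42 ± 0.61 in null mice (adjusted p = 0.675). For *Scnn1a* these were -1.03 ± 0.42 (adjusted p = 0.146) and 0.28 ± 0.42 (adjusted p = 0.682, and -0.41 with pan-epithelial scaling). At day 15, null over WT was 1.82 ± 0.64 for *Scnn1b* (adjusted p = 0.130) and 0.94 ± 0.42 for *Scnn1a* (adjusted p = 0.213). *Scnn1b* was called at day 15 by DESeq2 (1.84) and without null day 15 replicate 2 (2.49), and for treatment in WT mice by DESeq2 (-1.84), with pan-epithelial scaling (-2.03), with the replicate number as a block (-2.09) and without null day 15 replicate 1 (-1.84) or 2 (-1.85).

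The share of gamma in the ENaC transcripts separated all 4 groups. Per kilobase, gamma made up 8.18% and 7.41% of the 3 subunits in untreated WT mice, 18.8% and 14.9% in untreated null mice, 4.65% and 4.61% in treated WT mice and 2.84% and 1.62% in treated null mice. The alpha to gamma ratio was 8.72 and 10.5 in untreated WT, 3.03 and 4.40 in untreated null, 17.97 and 18.76 in treated WT and 26.3 and 53.7 in treated null mice. These ratios do not depend on the scaling between mice. The shares were compared after the levels were seen and were not tested; with 2 mice per group an exact permutation test cannot go below a two-sided p of 0.333. Beta to gamma was 2.51 and 2.03 in untreated WT, 1.29 and 1.32 in untreated null, 2.54 and 1.93 in treated WT and 7.99 and 6.98 in treated null mice. The difference between these neighbouring genes was not tested.

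**Figure D3:**
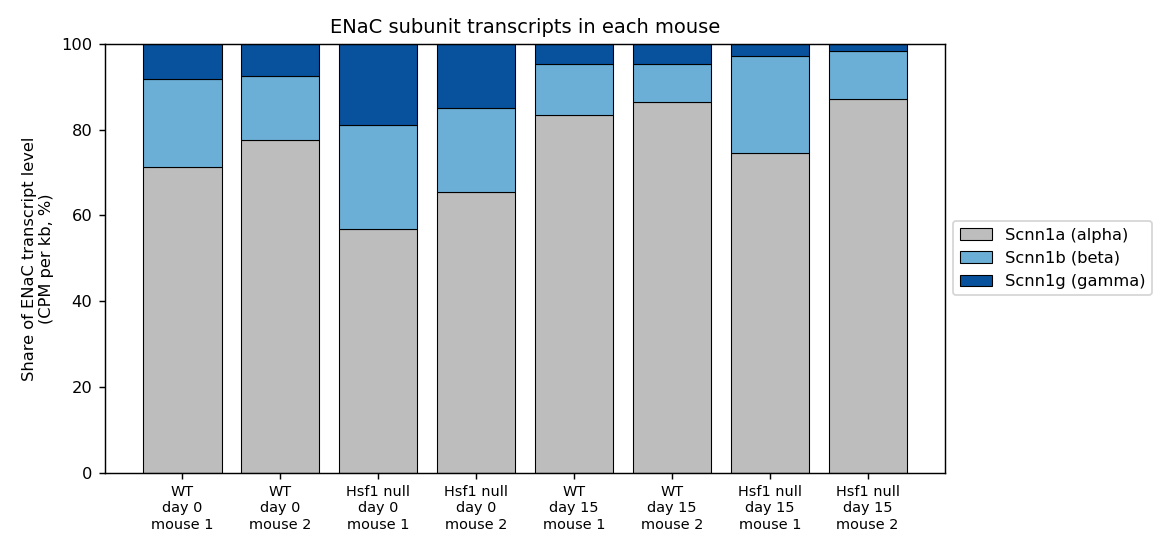
Stacked bars of the share of each ENaC subunit in the summed CPM per kilobase of the 3 subunits, with a full bar for each mouse. The gamma share lies between 14.9% and 18.8% in untreated *Hsf1* null mice and between 1.62% and 2.84% in treated *Hsf1* null mice, with both WT groups between these ranges.

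The genes that regulate ENaC and bring aldosterone's signal were read from a list of 10. Of these, 1 fell in WT and 3 fell in null mice with treatment, and none was called between the genotypes on either day. *Nr3c2*, the mineralocorticoid receptor that aldosterone activates, fell in WT (log2 fold change -2.77 ± 0.45, adjusted p = 0.0106) and in null mice (-2.25 ± 0.44, adjusted p = 0.0185). *Sgk1*, a kinase induced by corticosteroids that keeps ENaC at the membrane, was at 273 and 316 CPM in WT against 795 and 518 CPM in null mice at day 0, and at 209 and 106 CPM against 69.1 and 51.6 CPM at day 15. Its order of groups, highest in untreated and lowest in treated null mice, was that of the gamma share. This likeness was seen after the values were known and was not tested. For *Hsd11b2* and *Usp2* of the same list, both treated null mice were above both treated WT mice. *Sgk1* fell in null mice (-3.44 ± 0.39, adjusted p = 0.0123), with an estimate of -0.90 ± 0.36 in WT (adjusted p = 0.136). *Nr3c1*, the glucocorticoid receptor, fell in null mice (-1.48 ± 0.27, adjusted p = 0.0162). The median of the list was -0.77 in WT and -0.84 in null mice.

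Other apical carriers were lower in the treated WT mice as well. Among 10 tested of a list of 11, 7 fell with treatment in WT mice and 2 in null mice, and 4 were higher in null than in WT mice at day 15, with medians of -1.83, -0.23 and 1.20. *Slc26a2*, a sulfate and anion exchanger related to *Slc26a3*, was at 802 and 899 CPM in WT against 694 and 931 CPM in null mice at day 0, and at 110 and 87.5 CPM against 670 and 249 CPM at day 15. It fell in WT mice (log2 fold change -3.11 ± 0.45, adjusted p = 0.0076) and was higher in null mice at day 15 (2.22 ± 0.43, adjusted p = 0.0310). The same held for the phosphate carrier *Slc20a1* (-2.30 ± 0.51 and 3.05 ± 0.53), the dicarboxylate carrier *Slc13a2* (-1.97 ± 0.36 and 2.54 ± 0.36) and the colonic proton/potassium pump *Atp12a* (-1.68 ± 0.38 and 2.30 ± 0.38). The sodium/proton exchanger gene *Slc9a2* fell in WT mice (-2.02 ± 0.40). *Slc6a14*, an amino acid carrier, and *Slc16a1*, a monocarboxylate carrier, fell in both genotypes (-2.59 ± 0.36 and -2.21 ± 0.35 for *Slc6a14*, -1.47 ± 0.29 and -1.10 ± 0.28 for *Slc16a1*, WT first). *Slc10a2*, the last gene of the list, was not among the genes with counts under that symbol.

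Of 5 other carbonic anhydrases, only *Car2*, the abundant cytosolic form, was called. It fell in WT (log2 fold change -1.49 ± 0.37, adjusted p = 0.0385) and in null mice (-1.38 ± 0.37, adjusted p = 0.0394). None of 4 tested NHE3 scaffold genes was called in any comparison, with the largest estimate for *Pdzd3* between the genotypes at day 15 (1.63 ± 0.50, adjusted p = 0.0963). Of 6 other aquaporins, 2 passed the filter, and *Aqp1*, a water channel of blood vessel endothelium, fell in null mice (-1.59 ± 0.34, adjusted p = 0.0220).

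On the basolateral side, where the sodium pump and potassium channels drive uptake, 3 of 12 genes fell in WT mice, and in null mice 2 fell and 1 rose (5.3% of all genes rose). *Slc4a4*, a sodium/bicarbonate cotransporter, fell in both genotypes (-2.88 ± 0.51, adjusted p = 0.0143 in WT, and -2.56 ± 0.51, adjusted p = 0.0192 in null mice). The potassium channel genes *Kcne3* and *Kcnk5* fell in WT mice (-1.47 ± 0.30 and -1.90 ± 0.39) and were higher in null mice at day 15 (1.70 ± 0.30 and 1.68 ± 0.39). *Atp1b1*, the beta subunit of the sodium pump, fell in null mice (-1.29 ± 0.33, adjusted p = 0.0343), and the calcium-activated potassium channel gene *Kcnn4* rose there (1.34 ± 0.36, adjusted p = 0.0397). Genes of the opposite process, chloride and bicarbonate secretion, showed 2 of 9 falling in WT mice (*Ano1* and *Cftr*). *Cftr*, the apical chloride channel, fell in WT (-1.07 ± 0.25, adjusted p = 0.0328) and was higher in null mice at day 15 (1.44 ± 0.25, adjusted p = 0.0237), and *Guca2b*, which encodes uroguanylin, rose in null mice with treatment (1.32 ± 0.37, adjusted p = 0.0441). *Ano1* and *Kcnma1* fell in null mice.

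**Figure D4:**
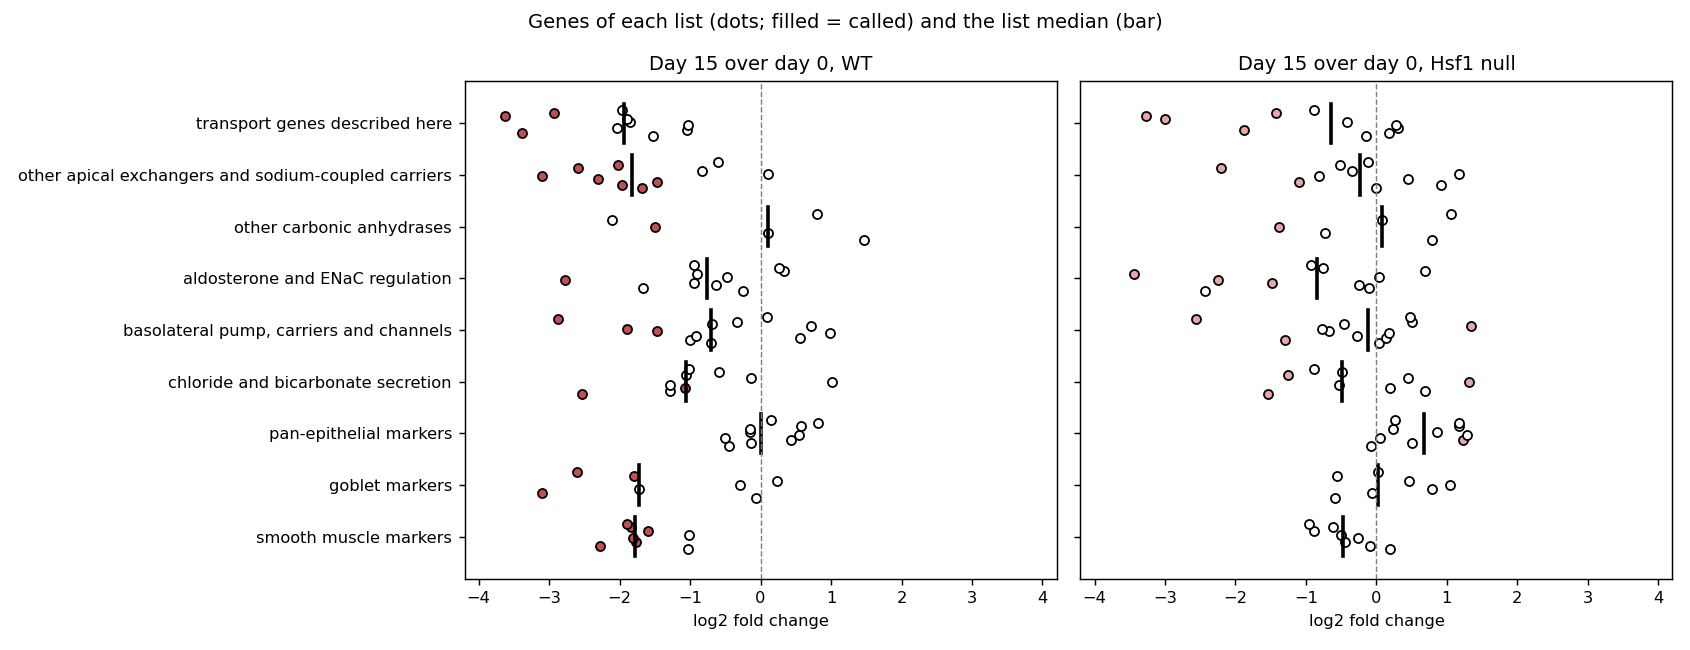
Log2 fold change from day 0 to day 15 in WT (left) and *Hsf1* null mice (right) of every tested gene of each list, with a filled dot for a called gene and a bar at the median of the list. The median of the transport genes is -1.93 in WT and -0.65 in null mice, and that of the pan-epithelial markers 0.00 and 0.68.

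In RNA from whole tissue, fewer colonocytes and less RNA per colonocyte cannot be told apart, so markers of cell types were set beside the transport genes. None of 10 pan-epithelial markers (such as *Epcam*, *Cdh1* and *Krt8*) fell in WT mice, and their summed level was 10637 to 15924 CPM in untreated WT, 11405 to 17889 CPM in untreated null, 16205 to 16516 CPM in treated WT and 21172 to 25074 CPM in treated null mice. All 10 had a higher estimate in null than in WT mice at day 15 (median log2 fold change 0.47, none called), and in null mice over time their median was 0.68 with *Cdx2* called higher. Of 11 tested colonocyte markers outside transport, 1 fell in WT mice, the brush border protease *Mep1a* (-3.11 ± 0.49), and 1 in null mice, *Plac8* (-2.09 ± 0.32). Their sum was 13945 to 20118 CPM over the untreated and 15939 to 25883 CPM over the treated mice, of which the single gene *Lypd8* made up 10062 to 14990 and 12795 to 21443 CPM.

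Some goblet cell markers were called in the same comparisons as the transport genes. Of 7, *Clca1*, *Zg16* and *Tff3* fell in WT mice, none was called in null mice, and *Clca1*, *Zg16* and *Fcgbp* were higher in null mice at day 15. The median log2 fold change of the 7 with treatment was -1.73 in WT and 0.02 in null mice. Their sum was 18403 to 26680 CPM in the 4 untreated mice, 6964 to 9133 CPM in treated WT mice and 18682 to 38758 CPM in treated null mice. Of 8 smooth muscle markers, 6 fell in WT mice and none in null mice. Their sums were 7073 to 9682 CPM in untreated WT, 6827 to 6947 CPM in untreated null, 2076 to 3546 CPM in treated WT and 5146 to 5945 CPM in treated null mice. At day 15 all 8 had a higher estimate in null than in WT mice (median 0.88), and *Synm* was called. All 4 tested genes of distal position in the gut had a lower estimate with treatment in both genotypes (median -1.36 in WT and -0.82 in null mice), and *Hoxa13* was called in both (-1.60 ± 0.41 in WT and -1.94 ± 0.42 in null mice). Their sum was 569 to 880 CPM in the 4 untreated mice, 483 and 171 CPM in treated WT mice and 554 and 354 CPM in treated null mice. WT day 15 replicate 2, the mouse at 171 CPM, had *Hoxd13* at 9.50 CPM against 91.9 CPM in its group mate. Without replicate 2, the median change of the 10 transport genes in WT was -2.35. That fit leaves a single treated WT mouse, whose sum of 483 CPM was also below every untreated mouse. The part of position along the gut was not tested.

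Of 8 leukocyte markers, 3 rose in treated WT mice (3.47% of all genes rose), among them *S100a8* and *S100a9* of neutrophils, and those 2 were lower in null than in WT mice at day 15, where 1.25% of all genes were called lower. The sum of the 8 was 234 to 805 CPM in untreated WT, 292 to 355 CPM in untreated null, 717 to 1910 CPM in treated WT and 190 to 480 CPM in treated null mice. The sum was led by *Lyz2*, at 642 CPM in WT day 0 replicate 1. The mean log2 CPM of the 8, which weighs each marker alike, was 3.94 and 2.84 in untreated WT, 5.37 and 6.81 in treated WT, 2.81 and 2.71 in untreated null and 3.0 and 4.12 in treated null mice. Fibroblast markers summed to 918 to 2477 CPM in untreated WT, 771 to 1130 CPM in untreated null, 2320 to 2342 CPM in treated WT and 438 to 1407 CPM in treated null mice. Of 8 squamous epithelium markers, listed to look for tissue of the anal margin, 4 were among the genes with counts. *Krt5*, *Krt6a*, *Krt4* and *Trp63* were not. The sum of the 4 was 0.359 to 5.55 CPM in the untreated and 13.6 to 45.3 CPM in the treated mice. A single gene, *Sprr1a*, was its largest part in each treated mouse, at 9.77 to 32.8 CPM. Whether anal tissue was present was not tested. The part of these leukocyte, fibroblast and squamous marker differences in the changes of the transport genes was not tested.

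Whether the response to treatment itself differed between the genotypes was tested for each gene. The null response lay above the WT response for 8 of the 10 transport genes (median difference 1.34 on the log2 scale, beside 0.00 over all genes), and below it for *Car1* (-0.84 ± 0.68) and *Scnn1g*. None of the 10 was called, 4 had an unadjusted p under 0.05 (*Aqp8*, *Aqp4*, *Car4* and *Slc5a8*), and across all genes 1 was called (0.00696%), with 1238 at an unadjusted p under 0.05. On simulated data made like these, the same test recovered 11% of genes whose responses differed by 2 on the log2 scale. The median difference was 0.46 without *Hsf1* null day 15 replicate 1, the mouse that was higher than its group mate for 9 of the 10 transport genes, and it was 0.94 without null day 0 replicate 1 and 1.70 without null day 15 replicate 2, where *Aqp8* was called.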

How the data were processed

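RNA-seq of distal colon was analyzed in 8 mice, 2 per group, grouped by genotype, day and replicate number as the labels give them. Per the submitters' processing notes, the authors used STAR, mm10 and DESeq2, the labels give the molecule as polyA RNA, and the libraries were made with the SENSE kit. The counting program and annotation are not given in the sources used here. The authors deposited raw counts per gene symbol, for 15859 genes with at least 6 counts in some mouse. They also deposited a signal table, the same counts divided by a DESeq2 size factor per sample, used here only as a check. Nothing states that the 2 mice of a group came from separate litters or cages.

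Counts were fitted in R 4.3.3 with edgeR 4.0.16 (TMM, 1 quasi-likelihood model of the 4 groups, prior df 5.97). A gene was tested if its mean normalized count was above 5 (14371 genes), and log2 CPM used a prior count of 2. The 10 genes, the lists and the tests were chosen with earlier results of these data known. All 10 genes are named, and of each list up to 4 per comparison, called ones first by size. Other list genes were named after their values were seen. Alternatives were DESeq2 1.42.0, its size factors, pan-epithelial scaling (equal geometric mean of 10 markers), other filters, no fold threshold, the replicate number as a block, only the groups compared, and each mouse left out. An exchanged block, and a fit without the 2 smallest libraries, were added after seeing the data. On simulated data with 200 of 14371 genes changed by 2 on the log2 scale between the genotypes at day 15, edgeR recovered 62% with 6 false calls.

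Between mice with the same replicate number, deviations from the group means correlated at 0.04 and 0.14 between the genotypes at day 0 and day 15, and at -0.29 and 0.15 between the days in WT and null mice. Same-numbered mice are different animals, so they were not treated as pairs. Exon lengths and positions come from GENCODE M21, and promoters from RefSeq on GRCm38.p6.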

Additional observations from a re-analysis of the deposited data

How the results depend on the processing

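The number of the 10 transport genes called moved with the setting. For null against WT at day 0 it was 0, and 1 with DESeq2 (*Car1*). At day 15 it was 2, but 5 with DESeq2 (with *Car4*, *Scnn1b* and *Slc26a3*), 1 with the replicate block (*Aqp8*), 2 with pan-epithelial scaling (*Aqp8* and *Car4*, with *Slc5a8* lost), 0 with only the groups compared, where fewer mice enter the fit, and 0 without the 2 smallest libraries; leaving out single mice gave 0 to 5, with 0 without either null day 0 mouse, either WT day 15 mouse or null day 15 replicate 1, 1 without either WT day 0 mouse and 5 without null day 15 replicate 2. For treatment in WT mice it was 3, but 6 with DESeq2, 6 with pan-epithelial scaling and 0 without the 2 smallest libraries, and leaving out single mice gave 2 to 6, with 6 without either null day 15 mouse. For treatment in null mice it was 4, but 0 without the 2 smallest libraries, and leaving out single mice gave 0 to 4, with 2 without null day 0 replicate 1, 0 without null day 0 replicate 2, 2 without null day 15 replicate 1 and 1 without null day 15 replicate 2. For the difference between the responses it was 0, but 1 with DESeq2 (*Aqp8*) and 0 to 1 leaving out single mice, with 1 without null day 15 replicate 2. With the 2 WT day 0 mice exchanged in the block, the counts were 5 for null against WT at day 15 and 7 for treatment in WT. The replicate block changed no other count by over 1.5 times, with 0, 4, 4 and 0 in the other comparisons.

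Pan-epithelial scaling moved the median of all genes to -0.52 (null against WT, day 15), -0.18 (treatment, WT), -0.64 (treatment, null) and -0.50 (difference of responses), and those of the 10 genes to 0.75, -2.04, -1.45 and 0.71. Over all genes, it called 73 higher and 171 lower at day 15 (275 and 180 with TMM), 149 and 414 for treatment in WT (499 and 613) and 92 and 2111 in null mice (761 and 931). DESeq2 called 1197, 1737, 2203 and 130 genes in these comparisons, against 455, 1112, 1692 and 1 in edgeR, and 6 genes passed at day 15 with only those groups. Without the 2 smallest libraries these counts were 18, 4, 0 and 0, and with the WT day 0 exchange 1314, 1856 (WT treatment) and 54 (difference); leaving out single mice gave 12 to 873, 92 to 1336, 0 to 1891 and 0 to 50. At day 0, where edgeR called 0, leaving out single mice gave 0 to 17 and DESeq2 gave 18. The single call for the difference became 2 with the replicate block, 2 without a filter and 7 with pan-epithelial scaling. Signs turned for uncalled estimates only. With pan-epithelial scaling these were *Aqp4* (-0.14) and *Scnn1g* (-0.46) at day 15, *Aqp8* (-0.58), *Car4* (-0.50) and *Scnn1a* (-0.41) in null mice over time, and the *Slc26a3* difference (-0.42). Without the 2 smallest libraries they were *Slc5a8* (-0.19) and *Scnn1a* (0.48) at day 0, and *Aqp8* (-0.13), *Aqp4* (0.82) and *Scnn1a* (-0.052) in null mice over time. Leaving out single mice turned further signs, and the estimates then ranged for null against WT at day 0 *Aqp8* -0.00091 to 0.64, *Slc9a3* -0.88 to 0.10, *Slc5a8* -0.37 to 0.51, *Scnn1a* -0.77 to 0.19 and *Scnn1b* -0.34 to 0.85, for null against WT at day 15 *Slc9a3* -0.69 to 2.64 and *Scnn1g* -1.01 to 0.71, for treatment in null mice *Aqp8* -1.22 to 0.88, *Aqp4* -0.77 to 0.84, *Car4* -1.27 to 1.04, *Scnn1a* -0.11 to 0.66 and *Scnn1b* -1.67 to 0.32, and for the difference of responses *Car1* -1.41 to 0.083, *Slc26a3* -0.49 to 0.89 and *Slc9a3* -0.31 to 3.02. Of 790 estimates for single genes under an alternative, 689 kept their direction and side of the threshold, 28 passed it anew, 39 no longer passed and 34 changed sign. The cause of these changes was not tested beyond what each setting removes. The lowest counts of a transport gene in any mouse were 21 (*Scnn1g*) and 26 (*Slc9a3*).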

Other observations

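The 5 genes outside the set whose log2 CPM followed the mean centred profile of the 10 transport genes most closely over the 8 mice were *Fam134b* (Pearson's r = 0.994), *9030619P08Rik* (0.991), *Narf* (0.991), *Dpm1* (0.989) and *Slc15a1* (0.989). *Fam134b* encodes a receptor for the turnover of endoplasmic reticulum, and *Slc15a1* encodes the apical peptide carrier PEPT1. The 8 mice share 4 groups, so these values describe likeness over the groups more than over independent mice, and no p is given.

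Among 8 crypt base and cycling markers, *Lgr5*, a stem cell marker, fell with treatment in WT mice, *Birc5* rose in both genotypes and *Top2a* rose in null mice. The *Lgr5* call rests on few reads, with 58 and 9 counts in untreated and 10 and 7 counts in treated WT mice. The summed level of the 8 markers was 328 to 564 CPM in untreated and 405 to 778 CPM in treated mice. Among 7 enteric glia and neuron markers, *Ret* rose in WT and *Uchl1* in null mice. Among 5 tested skeletal muscle markers, *Ckm* fell in WT and *Acta1* rose in null mice. Among 6 fibroblast markers *Dcn* fell in null mice. The renal markers of the list summed to at most 1.48 CPM in every mouse.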
